A study of Mus musculus with 11 samples.

Results

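Vomeronasal receptor genes were examined in RNA-seq of the whole main olfactory epithelium (MOE), the nasal tissue that holds the olfactory sensory neurons (OSNs) of the main olfactory system. The genes were chosen by measured values. They were the symbols starting with Vmn1r or Vmn2r, pseudogene symbols (-ps) left out, that had a sum of at least 5 raw counts over the 11 libraries, together with Trpc2 as an intended reference for vomeronasal neurons. This gave 59 genes of the 24421 entries in the table. They were 26 of the 208 Vmn1r symbols, 32 of the 122 Vmn2r symbols, and Trpc2. The libraries came from wild type mice (n = 3), mice heterozygous for a deletion of the gene cluster from Taar2 to Taar9 (n = 4) and mice homozygous for it (n = 4), and the TAAR genes of that cluster encode trace amine-associated receptors, a separate family of olfactory receptors. All 11 libraries were labelled as C57BL/6 pups of postnatal day 1 to 2, with no sex or litter given. The reporting part of the paper gives an older age and a mixed background for this line, and which applies was not settled here. Nothing in the labels says that replicates came from separate animals, so p-values measure the spread between these libraries, which may be in part technical.

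The vomeronasal organ is a blind tube at the base of the nasal septum that detects pheromones and other social cues. Its sensory neurons use 2 families of G protein-coupled receptors: V1R proteins, encoded by Vmn1r genes, in apical neurons that contain the G protein subunit Gnai2, and V2R proteins, encoded by Vmn2r genes, in basal neurons that contain Gnao1. V1R genes hold their coding sequence in a single exon, whereas V2R genes have several coding exons and encode a large extracellular domain. In both neuron types the signal ends in the cation channel Trpc2. The main epithelium uses another set of receptors, the odorant receptors (Olfr genes), and another channel, which contains Cnga2.

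The receptor genes were detected at very low levels. Their 58 sums added up to 1227 counts of 129124525 (0.00095%), against 146299 counts of the Olfr genes. The Vmn2r genes held 73.8% of these counts (906) and the Vmn1r genes 26.2% (321). The members held 88% of all counts given to receptor symbols, since 93 further symbols had 1 to 4 counts and 179 were listed at 0. The threshold lay in a dense range. A sum of exactly 5 was found for 13 members, among them Vmn2r82, Vmn2r87, Vmn2r89 and Vmn1r27, and a sum of exactly 4 for 9 symbols outside, among them Vmn2r88, Vmn2r30, Vmn1r15 and Vmn1r42. With a minimum of 3 counts 79 symbols qualified, and with a minimum of 10 counts 32.

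**Figure D1:**
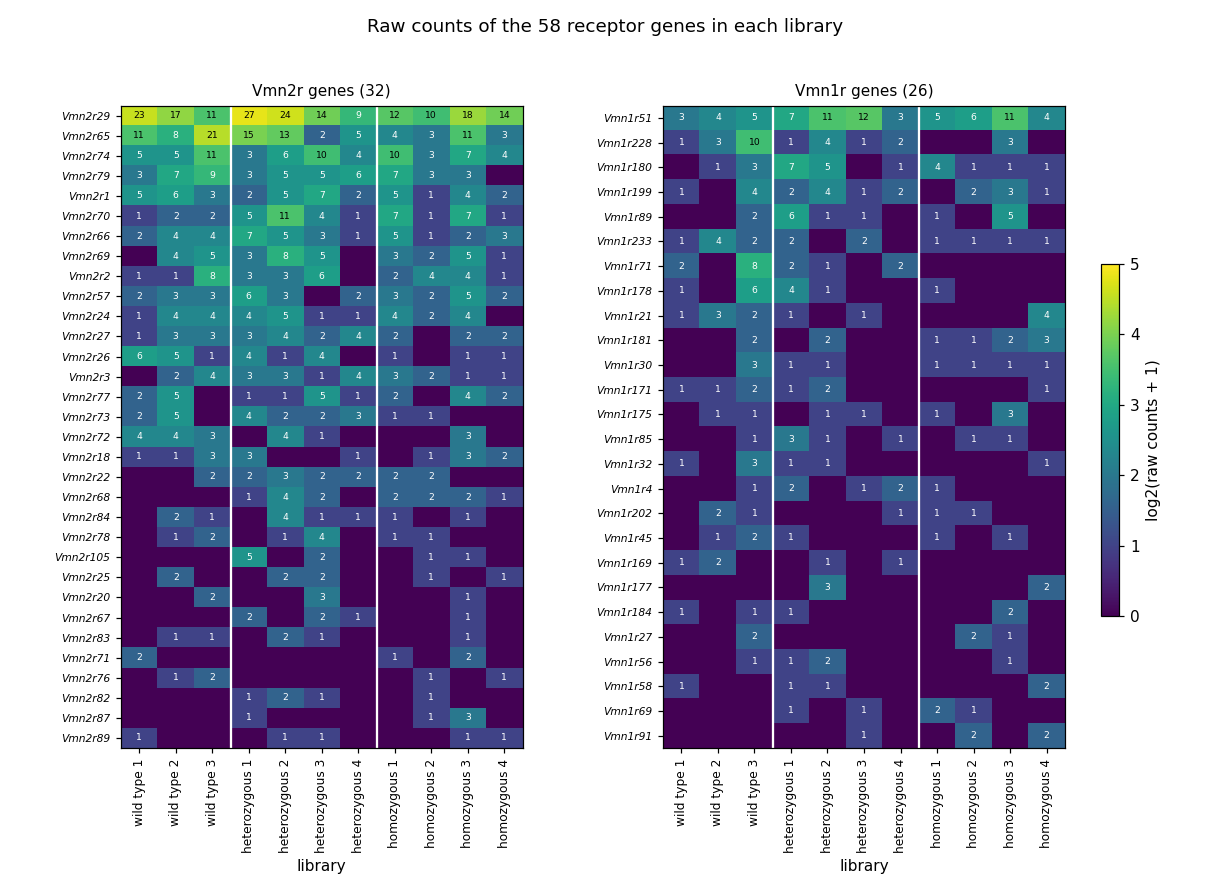
Raw counts of the 32 Vmn2r (left) and 26 Vmn1r (right) genes, one column per library and one row per gene in the order of the summed counts; colour gives log2(raw counts + 1) and numbers give the raw counts, with 0 left blank. White lines separate the genotypes; the Vmn2r29 row has 9 to 27 counts in every library, and most rows below the first 10 hold 0 to 5.

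Trpc2 could not serve as the reference. Trpc2 and the longer read-through gene Xntrpc were listed at 0 in all 11 libraries. In GENCODE (release M21, mm10) Trpc2 lies at chr7:102083116-102096396 on the plus strand, and 100% of its 2874 exonic bases also belong to exons of Xndc1 or Xntrpc on the same strand. Xndc1, which encodes a protein related to Xrcc1 and shares this locus, had 60 to 128 counts per library. The hemoglobin genes Hba-a1, Hba-a2, Hbb-bs and Hbb-bt were listed at 0 as well, although Alas2, a gene of heme synthesis in red blood cells, had 101 to 217 counts. A listing at 0 therefore sets no upper limit on Trpc2 RNA in these files. Other genes of vomeronasal cells gave a mixed picture. Of the vomeronasal formyl peptide receptor genes, Fpr3, Fpr-rs3, Fpr-rs4 and Fpr-rs6 were listed at 0. Of the 9 H2-Mv genes, nonclassical MHC class I genes of basal vomeronasal neurons, 3 were at 0 and H2-M10.2 had 1 to 11 counts. The transcription factor gene Tfap2e, which acts in basal vomeronasal neurons, had 0 to 7 counts. Gnai2 (220 to 350 CPM), Gnao1 (218 to 321 CPM) and Gng8 (38.8 to 92.3 CPM) were abundant, and all are also expressed outside vomeronasal neurons. CPM are counts scaled to a TMM-adjusted library total of 1000000. Gucy1b2, which marks the Trpc2-positive neurons known within the main epithelium, had 21 to 53 counts.

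For the description of the libraries, totals ranged from 9239866 to 14632525 counts. The summed counts of the Taar2 to Taar9 genes, which check the labels, were 87 to 119 in wild type, 31 to 96 in heterozygous and 1 to 3 in homozygous libraries. The first principal component (41.6% of variance, computed without the receptor genes) split the libraries across genotype into set 1, with wild type 1 and 2, heterozygous 3 and 4 and homozygous 1 and 2, and set 2, with the other 5. Meg3, a nuclear noncoding RNA, ranged from 218 to 517 CPM in set 1 and from 1210 to 1530 CPM in set 2. The 8 skeletal muscle genes listed summed to 6.67 to 57.8 CPM in wild type, 16.3 to 1620 CPM in heterozygous and 20.4 to 766 CPM in homozygous libraries. Sustentacular genes summed to 635 to 1280 CPM, genes of respiratory ciliated cells to 258 to 587 CPM, and genes of bulb and brain neurons to 12.5 to 49.1 CPM. The part of these cell types in the receptor levels was not tested.

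A few genes carried most of the signal. The 5 with the most counts held 37.9% and the 10 with the most held 53.4%, of which 9 were Vmn2r genes. They were Vmn2r29, Vmn2r65, Vmn1r51, Vmn2r74, Vmn2r79, Vmn2r1, Vmn2r70, Vmn2r66, Vmn2r69 and Vmn2r2. The median member had 11.5 counts in all (8 for Vmn1r, 19.5 for Vmn2r). Detection was patchy. Only 7 members had a count in all 11 libraries, 24 had one in at most 5, and 26 to 43 of the 58 were seen in a given library. In 5 members 1 library held at least as many counts as the other 10 together, each time another library: Vmn1r71 (8 of 15 counts in wild type 3), Vmn2r105 (5 of 9 in heterozygous 1), Vmn2r20 (3 of 6 in heterozygous 3), Vmn1r177 (3 of 5 in heterozygous 2) and Vmn2r87 (3 of 5 in homozygous 3).

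Vmn2r29, which encodes a V2R protein, had the most counts. Its raw counts were 23, 17 and 11 in wild type 1 to 3, 27, 24, 14 and 9 in heterozygous 1 to 4, and 12, 10, 18 and 14 in homozygous 1 to 4. On the scale of CPM, which allows for depth, the highest and the lowest library were both wild type (2.13 in wild type 1 and 0.887 in wild type 3), and the 3 groups overlap. It held 14.6% of all member counts. Per kb of exon in the GENCODE model (4812 bases, chr7:7231327-7247328, minus strand) it had 37.2 counts over the 11 libraries, against at most 9.23 for any other member. The annotation of this gene is shared. Of its exonic bases 46.3% also lie in exons of Gm45844 on the same strand, a model of 6687 exonic bases that spans chr7:7213017-7278289 and has no entry in the count table. Of the 51-base stretches of its transcripts 22.1% occur in no other gene, compared with a median of 89.3% for the Vmn2r members. In RefSeq the symbol Vmn2r29 itself covers 7212996 to 7278289 and has an upstream and a downstream start. How many of its counts came from which transcript was not tested.

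The sequences around each of the 2 RefSeq starts (GRCm38.p6, 250 before and 50 after the start, minus strand) differed in base composition. They are shown, with CG dinucleotides in capitals, because the upstream one holds more CG than any other member window in the RefSeq promoter table. The upstream window (chr7:7278240-7278539) holds 23 CG and 62.3% G or C, and the downstream window (chr7:7247279-7247578) 0 CG and 38.3% G or C. The downstream window lies within the range of the other members. The 52 of the 58 members with an entry in that table had 0 to 4 CG in their windows other than the upstream one (median 1), and the median over the 32851 windows of all genes was 7.
Vmn2r29 upstream start: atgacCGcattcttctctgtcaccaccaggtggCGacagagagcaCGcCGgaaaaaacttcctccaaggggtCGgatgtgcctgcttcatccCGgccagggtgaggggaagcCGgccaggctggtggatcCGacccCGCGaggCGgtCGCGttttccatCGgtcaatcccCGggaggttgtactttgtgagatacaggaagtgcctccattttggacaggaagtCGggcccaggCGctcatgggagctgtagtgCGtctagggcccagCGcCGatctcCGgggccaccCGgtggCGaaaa
Vmn2r29 downstream start: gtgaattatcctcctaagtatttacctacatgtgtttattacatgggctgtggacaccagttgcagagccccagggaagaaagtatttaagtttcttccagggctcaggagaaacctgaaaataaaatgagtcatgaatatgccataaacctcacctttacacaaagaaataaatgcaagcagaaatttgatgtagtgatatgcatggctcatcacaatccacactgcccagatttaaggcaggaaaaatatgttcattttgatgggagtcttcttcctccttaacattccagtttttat

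The members were unevenly spread over the genome. When receptor genes less than 1000000 bases apart were joined to blocks, a block on chromosome 7 (84935565 to 87044941, mm10) with Vmn2r65 to Vmn2r79 held 14 members among its 15 receptor symbols. These 14 genes carried 432 counts, or 35.2% of all member counts. The only symbol of the block below the threshold was Vmn2r75, with 4 counts. By contrast, the block at chr7:7231327-10176573 held 24 Vmn2r symbols, of which Vmn2r29 alone was a member, and the chromosome 17 block at 17703747 to 20596423 held 22, of which Vmn2r105 alone was one. On chromosome 6 a block held 6 members among 9 Vmn2r symbols, among them Vmn2r26, a receptor that responds to MHC class I peptides. On chromosome 3 the 3 members were Vmn2r1, Vmn2r2 and Vmn2r3. They belong to family C of the V2R genes, whose products are found together with other V2R proteins in the same basal neurons, and they summed to 4 to 15 counts per library. Since the counts chose the members, these shares are a description.

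**Figure D2:**
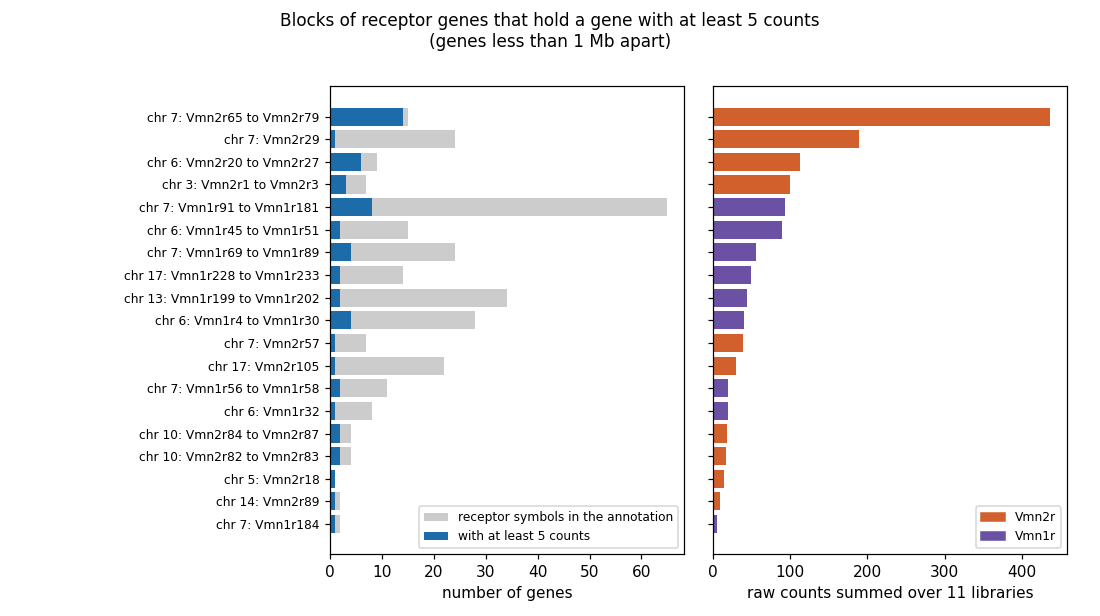
Blocks of receptor genes that contain a member, in order of summed raw counts. Left, number of receptor symbols in the block (grey) and of members with at least 5 counts (blue); right, raw counts summed over the 11 libraries for Vmn2r (orange) and Vmn1r (purple) blocks, with Vmn2r65 to Vmn2r79 highest at 436 counts.

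Within this block on chromosome 7 the promoters shared sequence. The windows of Vmn2r70, Vmn2r74 and Vmn2r79 are shown with the 10-base stretch AGAGGCAAAC in capitals, the stretch found in the promoters of most block members, and that of Vmn2r65, the most counted gene of the block, is shown as one without it (RefSeq, GRCm38.p6, 250 bases before to 50 after the start).
Vmn2r65, chr7:84963960-84964259, minus strand: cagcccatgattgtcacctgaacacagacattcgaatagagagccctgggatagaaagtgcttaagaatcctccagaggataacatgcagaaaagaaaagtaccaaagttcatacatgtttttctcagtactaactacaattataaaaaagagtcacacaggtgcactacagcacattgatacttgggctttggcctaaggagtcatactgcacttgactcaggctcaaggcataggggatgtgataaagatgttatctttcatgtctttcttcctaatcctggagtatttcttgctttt
Vmn2r70, chr7:85569039-85569338, minus strand: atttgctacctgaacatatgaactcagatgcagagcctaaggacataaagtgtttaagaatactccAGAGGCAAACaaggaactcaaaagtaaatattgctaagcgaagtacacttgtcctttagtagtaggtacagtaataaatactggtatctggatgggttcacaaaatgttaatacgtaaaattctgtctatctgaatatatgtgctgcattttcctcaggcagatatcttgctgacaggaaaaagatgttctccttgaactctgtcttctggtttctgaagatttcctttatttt
Vmn2r74, chr7:85961433-85961732, minus strand: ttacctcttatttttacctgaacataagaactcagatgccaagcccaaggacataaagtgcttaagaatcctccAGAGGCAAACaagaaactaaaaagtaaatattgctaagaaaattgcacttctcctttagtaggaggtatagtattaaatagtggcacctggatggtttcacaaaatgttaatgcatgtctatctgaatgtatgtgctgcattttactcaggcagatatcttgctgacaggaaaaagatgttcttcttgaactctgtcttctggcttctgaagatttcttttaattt
Vmn2r79, chr7:86996215-86996514, plus strand: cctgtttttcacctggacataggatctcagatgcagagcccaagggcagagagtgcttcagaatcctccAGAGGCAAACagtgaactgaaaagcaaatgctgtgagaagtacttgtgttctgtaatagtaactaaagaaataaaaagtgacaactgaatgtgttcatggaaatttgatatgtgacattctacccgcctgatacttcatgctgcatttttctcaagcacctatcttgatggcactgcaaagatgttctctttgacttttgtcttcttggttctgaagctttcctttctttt
Searched on both strands, this stretch occurred in 10 of the 12 block members with a promoter entry, the exceptions being Vmn2r65 and Vmn2r67. It began 176 to 184 bases before the start. It was found in 0 of the 18 other Vmn2r members, in 1 of 84 Vmn2r symbols below the threshold (Vmn2r75, of the same block), in 0 of 183 Vmn1r symbols and in 0.163% of 27025 genes. The stretch was chosen after the sequences were compared and is a description, not a site.

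The gene models of members and of symbols at 0 counts differed in 2 features that bear on counting. For Vmn2r genes the median exonic length was 8540 bases in the 32 members and 6120 in the 49 genes matched at 0 counts, and the median share of unique 51-base stretches was 89.3% and 79.9%. For Vmn1r genes the medians were 3610 and 2200 bases, and 93.0% and 82.1%. The symbols with 1 to 4 counts did not all lie between these classes, at 6050 bases and 82.6% for Vmn2r and at 3980 bases and 95.7%, both above the members, for Vmn1r. Most stretches also occurred in another gene in 49 of the 126 matched Vmn1r genes at 0 counts, but in 1 of the 26 members (Vmn1r177). Lengths and uniqueness come from GENCODE models, which may not be those that were counted. Per kb of exon, the members after Vmn2r29 were Vmn2r65 (9.23 counts), Vmn1r51 (9.08), Vmn2r74 (6.69) and Vmn1r21 (6.69), and the median was 2.54 for Vmn1r and 2.44 for Vmn2r members.

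To ask whether the receptor genes differed with the number of intact Taar clusters, the counts were first summed over each family. In such bulk tissue fewer cells of a type and less RNA per cell cannot be told apart. The Vmn2r sums were 73, 93 and 105 counts in wild type 1 to 3, 108, 122, 93 and 48 in heterozygous 1 to 4, and 78, 46, 97 and 43 in homozygous 1 to 4. A sum of 43 counts has an exact Poisson 95% interval of 31.1 to 57.9 for counting error alone. The levels were 7.56 ± 0.861 CPM (SD, n = 3) in wild type, 7.71 ± 1.95 CPM (n = 4) in heterozygous and 5.59 ± 1.54 CPM (n = 4) in homozygous libraries. The 2 lowest values were homozygous (3.70 and 5.01 CPM), but the highest homozygous value (7.11 CPM) lay above the lowest wild type value (6.76 CPM), so the groups overlap. The library at 5.01 CPM, homozygous 2, stood apart, with a TMM factor of 0.756 against 1.01 to 1.06 in the other 10, the lowest Olfr level (798 CPM) and 3220 CPM of nuclear noncoding RNAs against 1410 to 1710 CPM in the rest of set 1. Wild type and homozygous libraries with the same number formed 3 pairs, and both libraries of each pair lay in the same set. The pairs varied together over all genes (correlations of 0.326 to 0.415), as did other pairs within a set. In the 3 pairs the homozygous sum was lower each time, at 6.56 against 6.76, 5.01 against 7.45 and 7.11 against 8.47 CPM. The labels name no pairing. The homozygous mean was lower than wild type by 0.43 on the log2 scale. The pooled SD of single libraries was 0.35, which is not the error of this difference of means. That ratio was -0.39 without homozygous 2 but -0.28 without homozygous 4, the library with the lowest sum. Within set 1 the means were 7.10 CPM in wild type and 5.78 CPM in homozygous libraries (n = 2 each), and within set 2 they were 8.47 (n = 1) and 5.40 CPM (n = 2).

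The Vmn2r sums were also set against the Olfr genes, which were themselves at 1240 ± 128, 1130 ± 163 and 1020 ± 159 CPM in the 3 genotypes. As Vmn2r counts per 1000 Olfr counts, the ratio was 5.38 to 6.77 in wild type, 5.70 to 7.46 in heterozygous and 3.41 to 6.38 in homozygous libraries. Here 3 homozygous libraries (6.08 to 6.38) lay inside the wild type range and homozygous 4 below it, and the ratio of homozygous to wild type means was -0.15 on the log2 scale. Its direction rested on homozygous 4, since the ratio was 0.03 without that library, and it was -0.07 without wild type 2 and -0.23 without wild type 1. The block from Vmn2r65 to Vmn2r79, which holds 432 of the 906 Vmn2r counts, was at 3.80 ± 0.904 CPM in wild type, 3.58 ± 1.09 CPM in heterozygous and 2.60 ± 1.10 CPM in homozygous libraries. The Vmn2r members outside it were at 3.76 ± 0.0433 CPM, 4.13 ± 0.926 CPM and 2.99 ± 0.550 CPM in the same order. The homozygous libraries of this remainder (2.32 to 3.66 CPM) lay below the wild type ones (3.71 to 3.80 CPM), and the heterozygous ones (2.78 to 4.86 CPM) overlapped both. The gap lies within counting error. Homozygous 3, at 3.66 CPM, had 50 counts (exact Poisson 95% interval 37.1 to 65.9). Wild type 3, at 3.71 CPM, had 46 (33.7 to 61.4). The remainder was set apart after the values were seen and has no test.

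The Vmn1r sums were 15, 22 and 62 counts in wild type 1 to 3, 45, 42, 22 and 15 in heterozygous 1 to 4, and 20, 19, 36 and 23 in homozygous 1 to 4. Wild type 3 stood above all other libraries. The levels were 2.72 ± 1.99 CPM (SD, n = 3), 2.51 ± 0.799 CPM (n = 4) and 2.09 ± 0.400 CPM (n = 4). The homozygous to wild type ratio of means was -0.38 on the log2 scale and turned to 0.41 without wild type 3, and the heterozygous to wild type ratio went from -0.12 to 0.67. Both ratios to wild type thus rest on 1 library. The homozygous to heterozygous ratio, which does not use wild type, was -0.26 on the log2 scale, and the homozygous libraries (1.68 to 2.64 CPM) lay within the heterozygous range (1.6 to 3.29 CPM).

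The Vmn1r sums also differed between the 2 library sets. They were 1.39 to 2.08 CPM in the 6 libraries of set 1 and 1.98 to 5.0 CPM in the 5 of set 2, where 4 of the 5 lay above every library of set 1. Of the 26 Vmn1r members 20 had a higher mean CPM in set 2, and of the 32 Vmn2r members 19. Among the 4886 genes with a sum of counts in the range of the members this share was 57.8%. Per 100 Vmn2r counts there were 20.5 to 41.3 Vmn1r counts in set 1 and 34.4 to 59.0 in set 2. Other genes also differed between the sets. The sets were split on the tested genes other than the receptor genes, so for those genes a difference is in part built in. The nuclear RNA Meg3 was higher in set 2, as given above, and the 6 bulb and brain neuron genes summed to 12.5 to 39.2 CPM in set 1 and 37.4 to 49.1 CPM in set 2. Without overlap, the 3 genes of respiratory ciliated cells were lower in set 2 (258 to 339 against 387 to 587 CPM). So was the sum of the 3 vomeronasal transcription factor genes (102 to 121 against 172 to 202 CPM). That sum is nearly all Meis2 and Bcl11b, since Tfap2e had few counts, as given above, so it is no measure of vomeronasal neurons. The part of these in the Vmn1r counts was not tested.

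**Figure D3:**
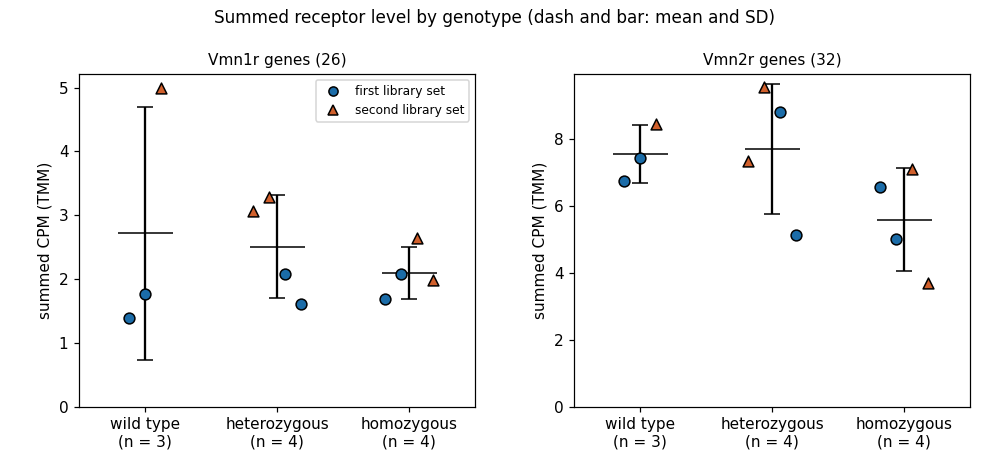
Summed CPM (TMM-scaled) of the 26 Vmn1r (left) and 32 Vmn2r (right) genes by genotype, one point per library. Circles are set 1 and triangles set 2 of the libraries, dashes and bars the mean and SD; for Vmn1r the wild type 3 point at 5.0 CPM lies above all others, and for Vmn2r the homozygous points reach from 3.70 to 7.11 CPM.

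Single genes were tested in the edgeR fit over all 3 genotypes, in which 16574 genes passed the filter on low counts. Only 3 of the 58 receptor genes passed it, Vmn2r29, Vmn2r65 and Vmn2r74. After adjustment over all tested genes 0 receptor genes were called in any comparison, and 0 genes of the whole table (0% called in each). The deleted Taar genes themselves, of which 4 were tested, were not called either. DESeq2, run as another tool, called 8, 3 and 2 genes, of which 4, 0 and 2 were Taar genes and 0 receptor genes of the vomeronasal families. With the replicate number as a block, in wild type and homozygous libraries alone, edgeR called 42 genes (0.253%), of which 0 were Taar genes and 0 receptor genes of these families. In that fit 1 of the 3 receptor genes, and 6.62% of all tested genes, had an unadjusted p under 0.05. At an unadjusted p under 0.05 the fit held 3.02% of all tested genes where homozygous libraries were compared with wild type, 2.24% where heterozygous were, and 0.561% between homozygous and heterozygous libraries. Of the 3 receptor genes 1, 0 and 0 did so.

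The gene with such a p was Vmn2r65, a receptor described as detecting cues from pups. Its counts were 11, 8 and 21 in wild type 1 to 3, 15, 13, 2 and 5 in heterozygous 1 to 4, and 4, 3, 11 and 3 in homozygous 1 to 4. In CPM the wild type libraries had 1.02, 0.641 and 1.69, and the homozygous libraries 0.336, 0.327, 0.806 and 0.258, so that homozygous 3 lay above wild type 2 and the groups overlap. The fitted log2 fold change of homozygous against wild type was -1.32 (SE 0.579, adjusted p = 0.996, edgeR's quasi-likelihood test), with an unadjusted p under 0.05. With the replicate number as a block, fitted to wild type and homozygous libraries alone, it was -1.21 (adjusted p = 0.659, edgeR). Homozygous was lower in 3 of 3 pairs, the libraries of each pair being of the same set. With the library set as a covariate the fold change was -1.5 (adjusted p = 0.705, edgeR). Without wild type 3 it was -0.88 (adjusted p = 0.783, edgeR), and the unadjusted p was then over 0.05. The other estimates had the same sign and did not pass, at -0.65 (SE 0.552) for heterozygous against wild type and -0.67 (SE 0.565) for homozygous against heterozygous.

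Vmn2r29 and Vmn2r74 did not pass in any comparison. For Vmn2r29 the log2 fold change against wild type was -0.32 (SE 0.364) in homozygous and 0.06 (SE 0.357) in heterozygous libraries. Between homozygous and heterozygous libraries it was -0.39 (SE 0.337). Vmn2r74, which lies in the chromosome 7 block, had 5, 5 and 11 counts in wild type, 3, 6, 10 and 4 in heterozygous and 10, 3, 7 and 4 in homozygous libraries, with all groups overlapping. Its log2 fold changes were -0.19 (SE 0.551), -0.23 (SE 0.552) and 0.04 (SE 0.515) in the same order of comparisons.

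**Figure D4:**
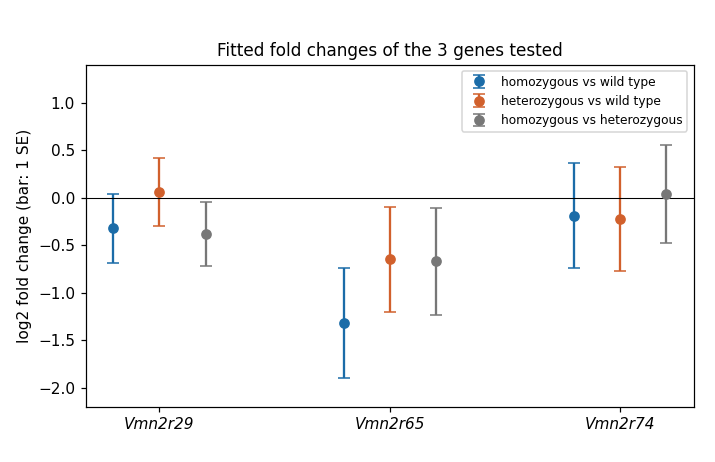
Log2 fold changes of the 3 receptor genes that passed the filter, in the 3 comparisons of genotypes; points are the edgeR estimates and bars 1 SE. Vmn2r65 in homozygous against wild type, at -1.32, is the only point with an unadjusted p under 0.05, and 0 of the 9 pass after adjustment.

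Among the members too low for the filter, Vmn1r51 had the most counts. It is a receptor of the V1rb group, with a ketone as a described ligand. Its counts were 3, 4 and 5 in wild type 1 to 3, 7, 11, 12 and 3 in heterozygous 1 to 4, and 5, 6, 11 and 4 in homozygous 1 to 4. The 3 wild type libraries (0.278 to 0.403 CPM) were among the lower ones, but heterozygous 4 (0.321 CPM) and homozygous 4 (0.344 CPM) lay between them. Vmn2r1, of family C, had 5, 6 and 3 counts in wild type, 2, 5, 7 and 2 in heterozygous and 5, 1, 4 and 2 in homozygous libraries. Here all 3 groups overlap as well. Vmn2r79 had 3, 7 and 9 counts in wild type, 3, 5, 5 and 6 in heterozygous and 7, 3, 3 and 0 in homozygous libraries, and the homozygous group holds the only 0 of this gene.

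Vmn2r70 had 1, 2 and 2 counts in wild type, 5, 11, 4 and 1 in heterozygous and 7, 1, 7 and 1 in homozygous libraries. The wild type libraries were low, but the lowest libraries of the other groups reached the same 1 count. Vmn2r66, Vmn2r69 and Vmn2r2 completed the 10 genes with the most counts, with 1 to 7, 0 to 8 and 0 to 8 counts per library. Each had overlapping groups.

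In the fit of all genes with at least 1 count (21601 genes) the 58 members could all be followed. In homozygous against wild type 36 of the 58 had a negative and 22 a positive fold change, with a median of -0.23. With the genes that had a genotype at 0 set to the bound of 3 counts, and 6 of them left out because neither group exceeded it, the median was -0.26. The median of all genes in the fit was 0.00, and 49.5% were negative. In homozygous against heterozygous 39 of 58 were negative (median -0.47, or -0.49 with bounds and 4 left out), against 51.8% of all genes (median -0.01). In heterozygous against wild type 28 of 58 were negative (median 0.11, or 0.01 with bounds and 7 left out), against 49.6% of all genes (median 0.00). The comparisons share libraries and are given side by side. The members were chosen by a minimum sum of these same counts, which the other genes did not have to reach. A member near that minimum could enter through a single genotype, and its direction is then partly set by the choice. Vmn2r105, negative between homozygous and heterozygous libraries, entered through the heterozygous ones, and Vmn2r87, positive there, through the homozygous ones. These shares and medians are therefore a description and support no difference.

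In this fit an unadjusted p under 0.05 was reached by 5 members in homozygous against wild type (2.96% of all genes), 3 in heterozygous against wild type (2.4%) and 1 between homozygous and heterozygous libraries (0.954%). The adjusted p of each was 1 (edgeR). Of the 5 members, 4 had a negative and 1 a positive fold change. Negative were Vmn2r65, Vmn1r71 with 2, 0 and 8 counts in wild type and 0 in every homozygous library, Vmn1r228 with 1, 3 and 10 against 0, 0, 3 and 0, and Vmn2r26 with 6, 5 and 1 against 1, 0, 1 and 1. For Vmn1r71 and Vmn1r228 wild type 3 held the highest count, and for Vmn2r26 it held the lowest wild type count. The positive one was Vmn2r68, with 0 in all wild type and 2, 2, 2 and 1 in homozygous libraries.

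Vmn2r68 was also among the 3 members in heterozygous against wild type, with 1, 4, 2 and 0 counts in heterozygous libraries. The others were Vmn2r105 (5, 0, 2 and 0) and Vmn2r67 (2, 0, 2 and 1), both with 0 counts in wild type, and all 3 fold changes were positive. Vmn2r105 and Vmn2r67 reached the minimum of 5 counts only through the heterozygous libraries, the group in which they are high, so their p-values are a description and support no difference. Between homozygous and heterozygous libraries the 1 member was Vmn2r73, with a negative fold change from 1, 1, 0 and 0 against 4, 2, 2 and 3 counts. These genes have 6 to 25 counts in all apart from Vmn2r65, and a difference of a few reads sets each of these p-values.

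Of the other vomeronasal genes, 5 of the 6 transduction genes were tested (Gnai2, Gnao1, Gng8, Ano1 and Plcb2). In homozygous against wild type 2 had a positive and 3 a negative fold change, with a median of -0.14 against 0.0155 over all tested genes, and 0 had an unadjusted p under 0.05. In heterozygous against wild type 1 was positive and 4 negative (median -0.15, against 0.0018), of which Ano1, a chloride channel gene, had such a p (-0.46, SE 0.172), and in homozygous against heterozygous all 5 were positive (median 0.06, against 0.0062) and 0 had one. After adjustment 0 were called in any comparison by edgeR. Of the transcription factor genes Bcl11b and Meis2 were tested, with 0 such p in any comparison, and 0 of the formyl peptide receptor and H2-Mv genes passed the filter. The gland lipocalin gene Mup4 had 58, 34 and 0 counts in wild type, 4, 0, 0 and 20 in heterozygous and 6, 5, 17 and 0 in homozygous libraries, while Lcn3 had 0 to 6 and Lcn4 0 to 1 counts per library. Mup4 thus varied from 0 upwards within each genotype, and its log2 fold change in homozygous against wild type was -2.17 (SE 1.29, adjusted p = 0.996, edgeR).

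For comparison, the 12 genes of main olfactory neurons, such as Omp, Adcy3 and Cnga2, all had a negative fold change against wild type in homozygous (median -0.29) and heterozygous libraries (median -0.18), with 0 at an unadjusted p under 0.05. Their summed level was 2270 ± 601 CPM in wild type and 1880 ± 190 CPM in homozygous libraries. This direction did not hold within set 2, where wild type 3 had 1630 CPM and the homozygous libraries a mean of 1980 CPM. It did not hold in the pair with number 3 either (1630 against 1960 CPM). Both rest on the same 1 wild type library. The Vmn2r sum was lower in homozygous libraries in both. So were the Olfr genes, also of main olfactory neurons, at 1350 CPM in wild type 3 against a set 2 homozygous mean of 1130 CPM and 1170 CPM in homozygous 3. The part of these genes in the Vmn2r difference was not tested.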

How the data were processed

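Total RNA of whole MOE was made into directional libraries with polyA selection, per the labels. The authors trimmed reads (Trimmomatic 0.36), aligned them to mm10 (HISAT2 2.1.0) and deposited raw counts per gene (featureCounts, Subread 1.6.2). Which annotation was counted, whether by strand, and how reads that fit several places were handled is not given in the sources used here. Counts of near-identical receptors and of overlapping genes are therefore uncertain. A second deposited table of normalised values was not used, and 0 columns belonged to no sample.

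The genes and lists were chosen with earlier results of these data known. Named genes are Trpc2, the 10 members with the most counts, members that passed the filter, up to 5 per comparison with the lowest unadjusted p under 0.05, up to 4 at each side of the threshold, up to 4 with most counts in 1 library, and listed marker genes. Vmn2r87, Vmn2r75 and the members with such a p in the fit without a filter were named after their values were seen.

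Raw counts were tested with edgeR (4.0.16, R 4.3.3; TMM, filterByExpr, quasi-likelihood fit of all 3 genotypes, Benjamini-Hochberg adjustment, threshold 0.05), and with DESeq2 (1.42.0) as an alternative. Same-number libraries varied together in all 3 pairs of wild type and homozygous libraries (correlations of deviations from group means of 0.326 to 0.415) but in 0 of 7 pairs with heterozygous libraries. Each of these 3 wild type and homozygous pairs lay within the same library set, and each same-number pair with a heterozygous library joined both sets. Over all pairs of different genotypes, correlations were positive within a set and negative between sets. The number therefore cannot be told apart from the set here. The labels do not say what a number shares, and wild type 1 and 3 correlated more with another homozygous number. A block fit of wild type and homozygous libraries was added after the data were seen. Sums over genes were given as means and SD with no test. Poisson intervals (95%, scipy 1.17.1) cover counting error only. GENCODE M21 matched 326 of 330 symbols, and RefSeq (GRCm38.p6) gave the promoters.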

Additional observations from a re-analysis of the deposited data

Results flagged for a closer look

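Vmn2r65 in homozygous 3 was at 0.806 CPM, set apart from the other 3 homozygous libraries (0.258 to 0.336 CPM) by 0.858 of the range of the group, past Dixon's critical value for 4 samples. It rests on 11 counts against 3 or 4. Of 30 groups looked at this was the only one, and chance flags about 1 in 20.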

How the results depend on the processing

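The Vmn2r ratio of homozygous to wild type means kept its sign under the 19 alternatives that changed a single choice (-0.65 to -0.15), as did that to heterozygous means (-0.64 to -0.27). The ratio to wild type means did not keep it when 2 choices were changed together, an alternative chosen after seeing the data: per 1000 Olfr counts and with each library left out in turn, the ratio to wild type ran from -0.23 to 0.03 (0.03 without homozygous 4, -0.07 without wild type 2) and that to heterozygous means from -0.36 to -0.11 (-0.11 without homozygous 4). The Vmn1r ratio of homozygous to wild type means kept its sign in 17 of the 19. Within set 2, with 1 wild type library, the homozygous to wild type ratio was -1.12 for Vmn1r and -0.80 for both families together. When each library was left out in turn, the Vmn1r ratio ran from -0.69 to 0.41 (homozygous to wild type) and from -0.43 to 0.67 (heterozygous to wild type), both upper values being those without wild type 3. With a minimum of 1 count the genes numbered 152, with 10 counts 33, Trpc2 included in both.

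DESeq2 called 8, 3 and 2 genes (homozygous to wild type, heterozygous to wild type, homozygous to heterozygous), 0 of them receptor genes. The number of receptor genes with an unadjusted p under 0.05 in homozygous against wild type was 5 with no filter on low counts, of 58 tested, and 2 with DESeq2, also of 58. With only the 2 genotypes compared it was 0 of 1 tested, since the filter then removed Vmn2r65. In the other comparisons it was 3 and 1 with no filter, where 58 instead of 3 were tested. Leaving out each library in turn gave 0 to 1, and 0 without wild type 1 or 3 or homozygous 1, 2 or 4.

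With the replicate number as a block over all 3 genotypes it was also 0 (Vmn2r65 at -1.18), and unadjusted p under 0.05 were reached by 286 in place of 500 genes. With the replicate block in wild type and homozygous libraries alone, where libraries of the same number share a set, 42 genes were called in place of 0, and without a block in the same libraries 0. Neither block changed the call of a receptor gene. Without 1 library the log2 fold change of Vmn2r29 ran from -0.58 to 0.04 (homozygous against wild type) and from -0.20 to 0.43 (heterozygous against wild type). That of Vmn2r74 ran from -0.40 to 0.25, from -0.44 to 0.21 and, in homozygous against heterozygous, from -0.26 to 0.18. The cause of these changes was not tested. Trpc2, at 0 counts, gave no value under any alternative. The depth leaves 55 of the 58 receptor genes without a test in the filtered fit.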

Other observations

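The receptor symbols below the threshold, which are not in the family sums by genotype given above, were not spread evenly over the libraries. Heterozygous 1 had a count for 42 of the 93 symbols with a sum of 1 to 4, and 51 of their 168 counts (30.4%), 34 of them from genes with a single count there. The other libraries had counts for 1 to 24 of these symbols, the most in heterozygous 3 (25 counts, 14.9%) and the fewest in heterozygous 4 (1 count). Of the counts of all 1507 genes with a sum of 1 to 4, heterozygous 1 held 13.7% and heterozygous 3 held 6.74%. The symbols seen in heterozygous 1 were of both families and lay on several chromosomes, among them Vmn2r88 and Vmn1r42.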
